A study of Mus musculus with 8 samples.

Results

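The TNF superfamily genes described here are 50 genes in 3 kinds: 18 ligands, 25 receptors and 7 adaptors and kinases that carry the receptors' signals. They were chosen by name, with earlier results of these data known. All 50 were found by Entrez identifier among the 36528 identifiers measured. The receptors were divided into 7 death receptors, which carry a cytoplasmic death domain, and 18 others. Polyadenylated RNA was sequenced from mesothelial cells of the mouse omentum, the fatty fold of the abdominal lining, in 4 BAP1 KO libraries and 4 WT libraries. BAP1 is a nuclear deubiquitinase that acts on histone H2A and is lost in many mesotheliomas, and the comparison asks what changes in expression when it is absent. The labels give the genotype and the tissue, and the sources used here do not give the deleted exons, any Cre driver, the strain, age and sex of the mice, the isolation of the cells or whether libraries came from separate animals. Values are CPM, counts scaled to a common library total, within a gene and the authors' RPKM, which also divides by length, between genes.

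Ligands of this family are trimeric proteins held in the membrane or shed from it, and they act by clustering receptors with cysteine-rich outer domains. Several receptors with a death domain, though not all, signal through the adaptors Fadd or Tradd, as Fas and Tnfrsf1a do. This can lead to caspase-driven apoptosis. It can also lead, through the kinases Ripk1 and Ripk3 and the pore-forming protein Mlkl, to necroptosis, a lytic death. Most other receptors bind TRAF adaptors and activate NF-kB and JNK. Macrophages and stromal cells use these signals in inflammation of serous membranes such as the omentum.

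Total counts per library ran from 67069401 to 84861343. Bap1 was present in all libraries, at 52.0 to 54.0 CPM in BAP1 KO and 62.6 to 64.2 CPM in WT, a log2 fold change of -0.25 ± 0.03 (SE). Counts over a whole gene cannot separate reads of deleted exons from the rest. Of 7 mesothelial markers 1 was higher, 4 were lower and 2 did not pass, and they went only partly with the label. Upk3b was at 226.7 RPKM in BAP1 KO and 224.1 RPKM in WT, Lrrn4 at 61.4 RPKM in BAP1 KO and 66.9 RPKM in WT, and Wt1, the one that rose, at 53.4 RPKM in BAP1 KO and 38.7 RPKM in WT. Msln and the keratins Krt8, Krt18 and Krt19 were low, at 0.437 to 2.44 RPKM in BAP1 KO and 1.28 to 6.31 RPKM in WT.

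Markers of other cells were present too, some at higher levels. The 7 mesothelial markers summed to 852.0 to 862.1 CPM in BAP1 KO and 829.2 to 852.5 CPM in WT. That is far below the macrophage and fibroblast sums that follow, although the lists differ in their genes and do not give shares of cells. Of 10 macrophage markers 5 were higher and 5 lower, with sums of 14225 to 14723 CPM in BAP1 KO and 11929 to 12216 CPM in WT. Lyz2 alone sets that direction, since the other 9 summed to 3476 to 3569 CPM in BAP1 KO and 3662 to 3704 CPM in WT. All 6 fibroblast markers were lower, with sums of 12698 to 13198 CPM in BAP1 KO and 15544 to 16663 CPM in WT. Of 5 endothelial markers 3 were lower and 1, Erg, was higher, and the sum of 12.7 to 14.4 CPM in BAP1 KO and 19.6 to 20.6 CPM in WT was mostly Kdr. Of 5 dendritic cell markers 2 were lower (19.6 to 22.4 CPM in BAP1 KO and 24.8 to 25.3 CPM in WT), and Flt3 had at most 2 counts. The 7 T cell markers summed to 7.27 to 7.89 CPM in BAP1 KO and 8.25 to 9.17 CPM in WT, mostly Cd247. Cd247 and Lck were lower and Cd2 higher, while Cd3e, Cd3d and Cd3g did not exceed 0.13 CPM. Cd2 had enough counts to be tested only through BAP1 KO, at 12 to 19 counts per library against 6 to 10 in WT. Its test therefore depended on that genotype, and the call held in 11 of 15 alternative fits. The 5 B cell markers summed to 3.34 to 3.91 CPM in BAP1 KO and 2.89 to 3.45 CPM in WT, with Cd79a higher. The 5 NK cell markers summed to 0.424 to 0.520 CPM in BAP1 KO and 0.169 to 0.281 CPM in WT, mostly Eomes, which was higher, while Gzma and Prf1 had at most 1 count. Beside these counts of markers, mesothelial ones included, 29.0% of all genes tested were called higher and 32.1% lower. These are bulk libraries, so fewer cells of a type and less RNA per cell cannot be told apart.

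Most of the ligands that changed were lower in BAP1 KO and most of the receptors that changed were higher. Of the 50 members, 42 had enough counts to be tested, and none of these passed the filter on the strength of 1 genotype alone. In the edgeR fit over all genes (adjusted p below 0.05), 15 members were higher and 15 lower in BAP1 KO, which is 71.4% of those tested, against 61.1% of all 16929 genes tested. By class, 8 of 14 ligands were lower (57.1%), where 32.1% of all genes were, and 2 were higher. Of 21 tested receptors 11 were higher (52.4%), where 29.0% of all genes were, and 3 were lower. A change of at least 1.5-fold was called in 12 members (28.6%), against 14.8% of all genes, with 9 of them lower and 3 higher. Among all genes that size was reached by 10.3% downward and 4.49% upward. The 9 were 6 ligands and the signalling genes Ripk3, Mlkl and Traf1. Median log2 fold changes were -0.32 for ligands, 0.04 for death receptors, 0.19 for other receptors and -0.10 for adaptors and kinases, and 0.00 over all genes tested. Values of the 2 genotypes were fully apart in 29 of the 42 (69.0%), as they were in 53.8% of all genes. The list was chosen with earlier results of these data known. With so many genes moving, the shares called are a description of the list and were not tested.

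**Figure D1:**
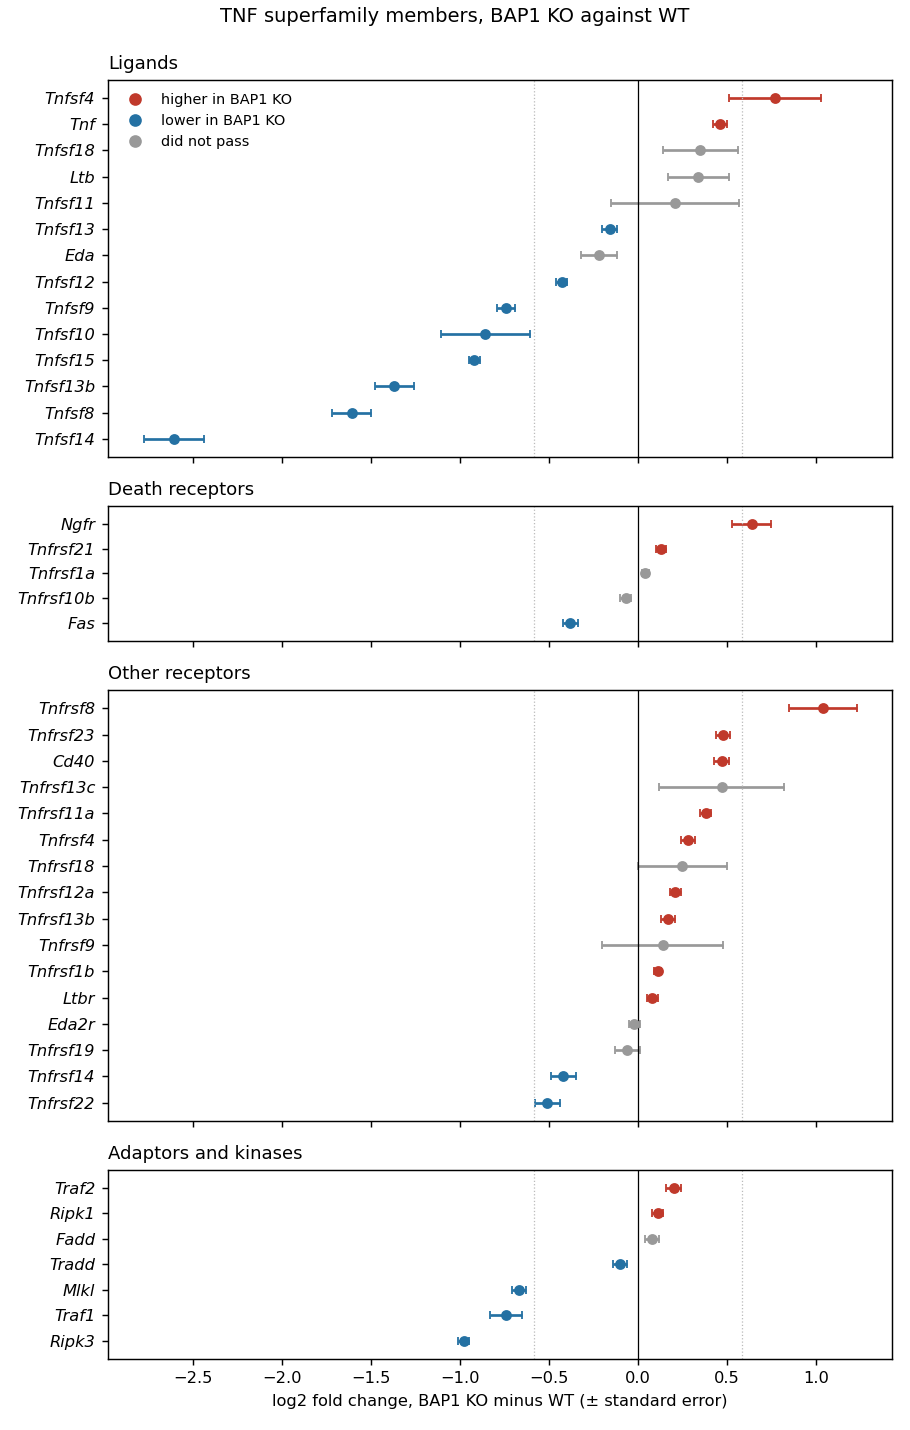
Log2 fold change of each tested member, BAP1 KO minus WT, with its standard error, by class; red marks genes that rose in BAP1 KO, blue those that fell and grey those that did not pass, and dotted lines mark 1.5-fold. Ligands reach -2.61 (Tnfsf14), while receptors range from -0.51 (Tnfrsf22) to 1.04 (Tnfrsf8).

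The window around the start site, 250 bases before it to 50 after, is printed for 5 members that the results turn on: the ligands Tnfsf14 and Tnfsf15 and the necroptosis genes Ripk3 and Mlkl, which were lower, and Tnf, which was higher. The sequences are RefSeq's on GRCm38.p6, all from the minus strand, where 41 of the 50 members had a window. Capitals mark matches on either strand to the NF-kB motif (3 G, any 2 bases, 3 T and 2 C) or to the motifs of AP-1 (TGANTCA), STAT factors (TTCNNNGAA) and TBP (TATAAA), and the motifs do not overlap in these windows.
Tnfsf14 promoter, chr17:57194132-57194431: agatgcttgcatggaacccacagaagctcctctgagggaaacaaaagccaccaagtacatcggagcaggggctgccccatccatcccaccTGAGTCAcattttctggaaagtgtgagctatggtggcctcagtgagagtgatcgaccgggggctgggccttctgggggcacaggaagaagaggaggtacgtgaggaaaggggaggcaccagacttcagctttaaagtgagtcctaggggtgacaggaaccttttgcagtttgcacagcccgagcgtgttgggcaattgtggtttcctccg
Tnfsf15 promoter, chr4:63745010-63745309: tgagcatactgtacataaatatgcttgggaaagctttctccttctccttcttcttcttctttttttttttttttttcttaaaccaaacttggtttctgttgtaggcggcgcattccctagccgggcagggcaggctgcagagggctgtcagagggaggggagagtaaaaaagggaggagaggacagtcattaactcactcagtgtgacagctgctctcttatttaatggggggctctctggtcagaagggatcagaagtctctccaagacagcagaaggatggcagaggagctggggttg
Ripk3 promoter, chr14:55788808-55789107: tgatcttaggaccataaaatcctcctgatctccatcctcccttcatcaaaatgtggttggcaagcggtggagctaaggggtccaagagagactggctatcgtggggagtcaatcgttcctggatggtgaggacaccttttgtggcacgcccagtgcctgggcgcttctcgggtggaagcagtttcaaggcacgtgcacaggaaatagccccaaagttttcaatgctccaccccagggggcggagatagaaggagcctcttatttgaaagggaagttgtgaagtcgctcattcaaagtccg
Mlkl promoter, chr8:111338156-111338455: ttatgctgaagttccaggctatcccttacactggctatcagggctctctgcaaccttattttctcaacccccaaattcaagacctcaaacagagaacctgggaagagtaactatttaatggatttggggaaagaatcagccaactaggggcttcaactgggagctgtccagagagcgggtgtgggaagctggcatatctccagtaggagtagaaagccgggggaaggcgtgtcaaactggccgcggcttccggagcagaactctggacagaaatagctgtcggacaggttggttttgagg
Tnf promoter, chr17:35201958-35202257: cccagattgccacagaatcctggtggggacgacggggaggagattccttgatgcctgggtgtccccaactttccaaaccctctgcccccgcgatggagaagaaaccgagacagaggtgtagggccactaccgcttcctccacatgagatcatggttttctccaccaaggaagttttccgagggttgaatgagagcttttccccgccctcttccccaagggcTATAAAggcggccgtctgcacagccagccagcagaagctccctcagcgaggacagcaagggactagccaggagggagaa
Only 2 matches stood in these 5 windows, an AP-1 match 160 bases before the start of Tnfsf14 and a TATA box 29 bases before the start of Tnf. Over all 32817 windows of this length, 1.63% held the NF-kB letters, 7.81% the AP-1 letters, 8.29% the STAT letters and 13.6% the TATA letters. Among the 46 windows of members, 4, 7, 10 and 7 held them in that order, as numbers of windows. Some genes have more than 1 window. Those of Tnfsf13b overlap, and the same AP-1 match is counted in both. The shares were not tested against those of all windows. A match is a description of letters, and a window without one says only that these letters are not in it.

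Among the ligands, Tnfsf14 changed by the largest factor. This ligand of Tnfrsf14 and Ltbr, known as LIGHT, stood at 0.563, 0.308, 0.294 and 0.345 CPM in the 4 BAP1 KO libraries, against 2.01, 1.93, 2.51 and 2.69 CPM in WT. Every BAP1 KO library lay far below every WT library, although 1 of them was higher than the other 3. The level in BAP1 KO was 16.5% of that in WT, a log2 fold change of -2.61 ± 0.17 (SE; edgeR adjusted p = 3.7e-14). It rests on 24 to 39 counts per BAP1 KO library and 136 to 207 per WT library.

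Tnfsf15, a ligand of the death receptor Tnfrsf25, was second among the ligands per length, at 18.4 RPKM in BAP1 KO and 34.5 RPKM in WT, and fell. It had 104.0, 107.9, 113.0 and 105.3 CPM in BAP1 KO, against 207.6, 204.2, 206.4 and 195.5 CPM in WT. The genotypes were widely separated and the libraries of each were tight. The level was 52.9% of WT, with a log2 fold change of -0.92 ± 0.03 (adjusted p = 1.7e-23). Tnfsf8, the ligand of Tnfrsf8 and a neighbour of Tnfsf15, lies 86.1 kb away on chromosome 4 and fell too. Tnfsf8 was at 1.23, 0.988, 1.29 and 1.03 CPM in BAP1 KO and 3.92, 3.15, 3.72 and 3.11 CPM in WT. All BAP1 KO libraries were below all WT libraries, and the log2 fold change was -1.61 ± 0.11 (adjusted p = 1.3e-13).

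Tnfsf13b, Tnfsf13 and Tnfsf9 fell as well. Tnfsf13b, the B cell survival factor BAFF, stood at 1.39, 1.36, 1.18 and 1.27 CPM in BAP1 KO, against 3.95, 3.25, 2.92 and 3.28 CPM in WT. No library of one genotype came near the other, and the log2 fold change was -1.37 ± 0.11 (adjusted p = 2.2e-12). The related ligand Tnfsf13, known as APRIL, fell by 0.16 ± 0.04 on the log2 scale (adjusted p = 2e-04). Tnfsf9, which costimulates T cells through Tnfrsf9, had 7.67, 7.19, 7.21 and 7.98 CPM in BAP1 KO and 12.3, 12.2, 13.0 and 12.7 CPM in WT. The genotypes did not overlap, with a log2 fold change of -0.74 ± 0.05 (adjusted p = 1.2e-13). Tnfsf9 lies on chromosome 17 in a row with Cd70 and Tnfsf14, 38.2 kb before Cd70, which in turn lies 39.7 kb before Tnfsf14. Cd70 had at most 2 counts in any library. Of the 50-base windows of Tnfsf9 transcripts, 11.5% occur in another gene, chiefly the opposite-strand Gm11110.

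Tnfsf12, known as TWEAK, was the ligand with the highest level per length, at 29.4 ± 0.92 RPKM in BAP1 KO and 39.3 ± 0.77 RPKM in WT (SD, n = 4 each). Its libraries were at 49.7, 51.1, 47.9 and 51.6 CPM in BAP1 KO, against 67.2, 66.8, 66.3 and 69.2 CPM in WT. The drop was moderate but far outside the spread, with a log2 fold change of -0.43 ± 0.03 (adjusted p = 4.7e-14). Tnfsf12 and Tnfsf13 are adjacent genes, and 46.8% and 57.3% of the 50-base windows of their transcripts also lie in another transcript, chiefly the read-through Tnfsfm13, so their counts are uncertain. Tnfsf10, known as TRAIL, an apoptosis inducer, was near the lower limit of measurement, at 0.260, 0.257, 0.282 and 0.193 CPM in BAP1 KO and 0.518, 0.588, 0.331 and 0.363 CPM in WT. The highest BAP1 KO library was just below the lowest WT library. The log2 fold change of -0.86 ± 0.25 (adjusted p = 0.004) rests on 14 to 23 counts per BAP1 KO library and 24 to 50 per WT library.

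Tnf and Tnfsf4 were the ligands that rose. Tnf, the inflammatory cytokine that names the family, stood at 32.6, 32.7, 31.9 and 33.2 CPM in BAP1 KO, against 25.0, 23.6, 23.6 and 22.8 CPM in WT. The BAP1 KO libraries were all higher and very close to each other. The level was 137.2% of WT, with a log2 fold change of 0.46 ± 0.04 (adjusted p = 1.1e-12). The neighbours of Tnf on chromosome 17 were low: Ltb at 0.892 CPM in BAP1 KO and 0.707 CPM in WT (adjusted p = 0.077), and Lta at 4 to 10 counts per library. Tnfsf4, the ligand of the T cell costimulator Tnfrsf4, rose by 0.77 ± 0.26 (adjusted p = 0.010) at 0.392 CPM in BAP1 KO and 0.227 CPM in WT, and without BAP1 KO replicate 1 this was 0.63 ± 0.28 (adjusted p = 0.054).

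The ligands Eda, Tnfsf11 and Tnfsf18 did not pass. Eda, which acts in skin appendage development, was at 2.22 ± 0.23 CPM in BAP1 KO and 2.59 ± 0.16 CPM in WT (SD, n = 4 each; edgeR adjusted p = 0.056). Tnfsf11, known as RANKL, the osteoclast-inducing ligand, had 6 to 17 counts per library (log2 fold change 0.21 ± 0.36). Fasl had 0 to 4 counts and Cd40lg 0 to 3. Both are made chiefly by lymphocytes, and a count of 0 allows up to 0.0354 to 0.0447 CPM, depending on the library (3 counts; counting error only). Tnfsf18, the ligand of Tnfrsf18, was at 0.571 CPM in BAP1 KO and 0.453 CPM in WT (adjusted p = 0.16). The fibroblast markers given above were all lower in BAP1 KO and the macrophage markers moved both ways, and their part in the ligand values was not tested.

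**Figure D2:**
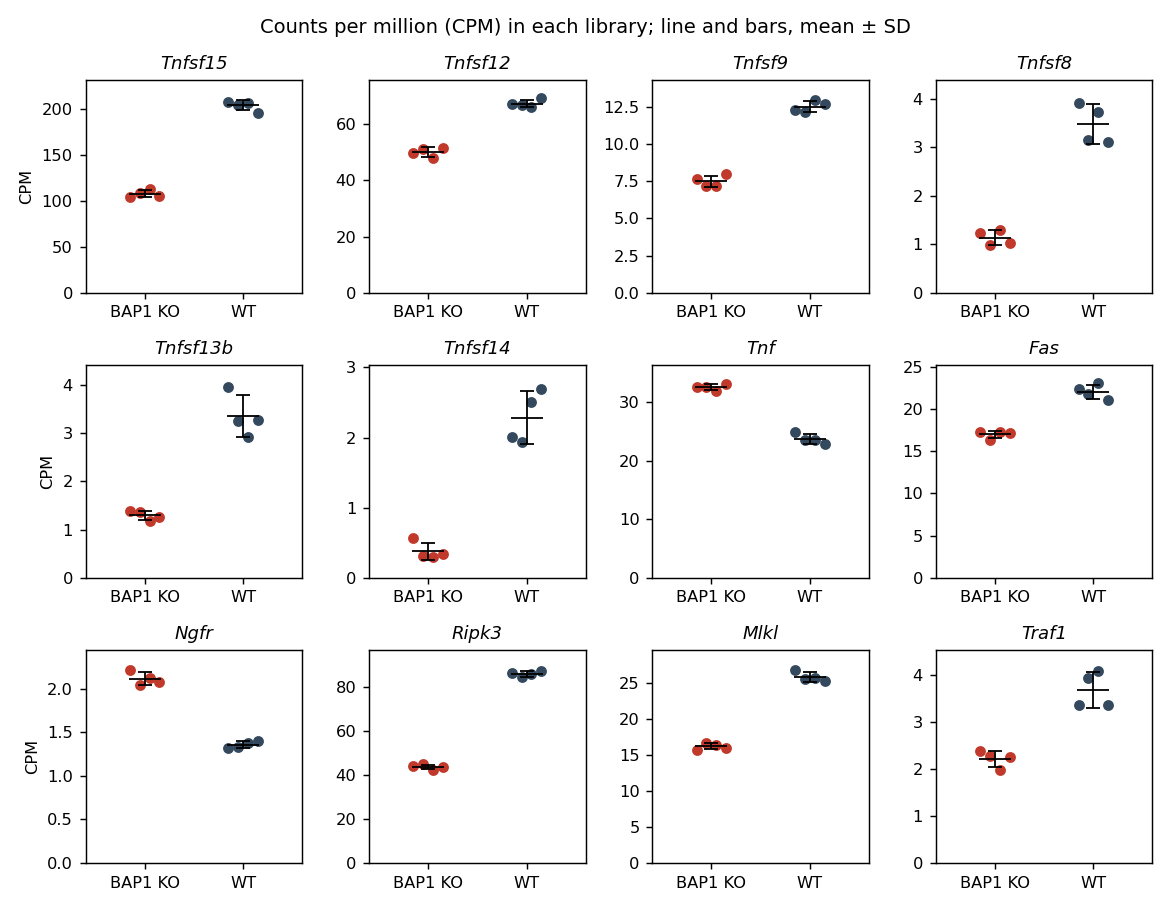
CPM in each of the 4 BAP1 KO libraries (red, left) and 4 WT libraries (dark, right) for 12 members, with the mean and SD; each axis starts at 0. The 12 were picked from members that passed the test. The genotypes do not overlap in any of the panels, and Tnf and Ngfr are the 2 that are higher in BAP1 KO. Of all 42 tested members 15 were higher and 15 lower, and 69.0% were fully apart, against 53.8% of all genes.

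Of 5 death receptors tested, 2 rose, 1 fell and 2 did not pass. The share called, 60.0%, was near the 61.1% of all genes. Tnfrsf1a, the widely expressed receptor of Tnf, was at 139.0 ± 2.8 RPKM in BAP1 KO and 134.1 ± 2.2 RPKM in WT (SD, n = 4 each), above the other death receptors. Its libraries stood at 301.6, 295.5, 297.4 and 308.8 CPM in BAP1 KO, against 288.6, 291.7, 291.2 and 299.3 CPM in WT. The ranges overlapped, and the log2 fold change of 0.04 ± 0.02 did not pass (adjusted p = 0.11, and 0.048 to 0.33 over the alternatives). Tnfrsf10b, the mouse death receptor for TRAIL, had 32.1, 32.2, 31.8 and 32.0 CPM in BAP1 KO and 33.9, 34.0, 32.5 and 33.9 CPM in WT. All 4 BAP1 KO libraries were below WT by a narrow margin, and the log2 fold change of -0.07 ± 0.03 did not pass (adjusted p = 0.059, and 0.022 to 0.13 over the alternatives).

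Fas, the receptor of Fasl and a trigger of apoptosis, was the death receptor that fell. It stood at 17.3, 16.3, 17.2 and 17.1 CPM in BAP1 KO, against 22.3, 21.7, 23.0 and 21.1 CPM in WT. The genotypes were clearly apart, at 76.9% of the WT level, with a log2 fold change of -0.38 ± 0.04 (adjusted p = 1.3e-09). Ngfr, the neurotrophin receptor, went the other way, with 2.22, 2.04, 2.13 and 2.08 CPM in BAP1 KO and 1.32, 1.33, 1.38 and 1.40 CPM in WT. It was higher in all 4 BAP1 KO libraries, by 0.64 ± 0.11 on the log2 scale (adjusted p = 4.6e-06). Tnfrsf21 rose by 0.13 ± 0.03 (adjusted p = 2.6e-04). Tnfrsf25, the receptor of Tnfsf15, had 0 to 19 counts per library and Edar 0 to 5, so neither was tested.

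Among the other receptors, 9 of 16 tested rose (56.2%, where 29.0% of all genes did), all but Tnfrsf8 by less than 1.5-fold. Another 2 fell (12.5%, where 32.1% of all genes did). Tnfrsf12a, the receptor of Tnfsf12 and the receptor with the highest level per length, was at 206.6 ± 7.5 RPKM in BAP1 KO and 177.1 ± 6.8 RPKM in WT (SD, n = 4 each). By library it had 205.3, 196.5, 192.3 and 206.8 CPM in BAP1 KO, against 170.4, 168.1, 171.5 and 182.6 CPM in WT. The groups did not overlap, and the log2 fold change was 0.21 ± 0.03 (adjusted p = 5.3e-08). Ltbr, which binds lymphotoxin and Tnfsf14, stood at 149.2, 140.6, 145.6 and 150.4 CPM in BAP1 KO and 131.6, 138.6, 138.2 and 146.1 CPM in WT. The ranges overlapped, and the small rise of 0.08 ± 0.03 (adjusted p = 0.014) was lost without BAP1 KO replicate 4 (0.07, adjusted p = 0.056) and without WT replicate 1 (0.05, adjusted p = 0.077).

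Of the other receptors that rose, Cd40, which receives T cell help on macrophages and B cells, was at 21.6 ± 1.2 CPM in BAP1 KO and 15.6 ± 0.44 CPM in WT (SD, n = 4 each), a log2 fold change of 0.47 ± 0.04 (adjusted p = 6.1e-11). Tnfrsf11a, known as RANK, the receptor of Tnfsf11 on osteoclast precursors and macrophages, rose by 0.38 ± 0.03 (adjusted p = 1.1e-12). Tnfrsf8 rose by 1.04 ± 0.19 at 0.763 CPM in BAP1 KO and 0.372 CPM in WT, and Tnfrsf4 by 0.28 ± 0.04. Smaller rises were those of Tnfrsf13b (0.17 ± 0.04), a receptor of Tnfsf13 and Tnfsf13b, and Tnfrsf1b (0.11 ± 0.02), the second receptor of Tnf. Log2 fold changes of the 10 macrophage markers ran from -0.99 (Cd14) to 0.52 (Aif1), and of the 5 higher ones Csf1r (0.05) held its call in 8 of 16 alternatives. Their part in the receptor values was not tested. The receptors that did not pass were Tnfrsf9 (0.14 ± 0.34), Tnfrsf13c (0.47 ± 0.35) and Tnfrsf18 (0.25 ± 0.25), all below 0.5 CPM on average, and Tnfrsf19 (-0.06 ± 0.07) and Eda2r (-0.02 ± 0.03), which were at 6.95 and 61.4 CPM in BAP1 KO and 7.27 and 62.4 CPM in WT.

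Tnfrsf22 and Tnfrsf23, decoy receptors for TRAIL in the mouse, lie next to each other on chromosome 7 and moved in opposite directions. Tnfrsf23 was at 36.3 ± 2.6 CPM in BAP1 KO and 26.0 ± 0.56 CPM in WT (SD, n = 4 each), a log2 fold change of 0.48 ± 0.04 (adjusted p = 1e-11). Tnfrsf22, 16.1 kb away, was at 4.75 ± 0.22 CPM in BAP1 KO and 6.74 ± 0.60 CPM in WT, or -0.51 ± 0.07 (adjusted p = 1.8e-07). The next gene of the row, Tnfrsf26, which is not among the 50, fell by 0.84 ± 0.05 (adjusted p = 9.4e-15). Exons of Tnfrsf26 and Tnfrsf23 overlap those of a gene on the opposite strand. Tnfrsf22 and Tnfrsf23 resemble each other: 27.4% of the 50-base windows of Tnfrsf22 transcripts and 19.3% of those of Tnfrsf23 occur in another gene, chiefly in the other of the pair. Reads from such windows may not align to 1 gene, so both levels are uncertain. Tnfrsf14, a receptor of Tnfsf14, also fell (-0.42 ± 0.07, adjusted p = 1.1e-05). The lymphocyte receptors Cd27 and Tnfrsf17 had at most 12 counts per library and were not tested.

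**Figure D3:**
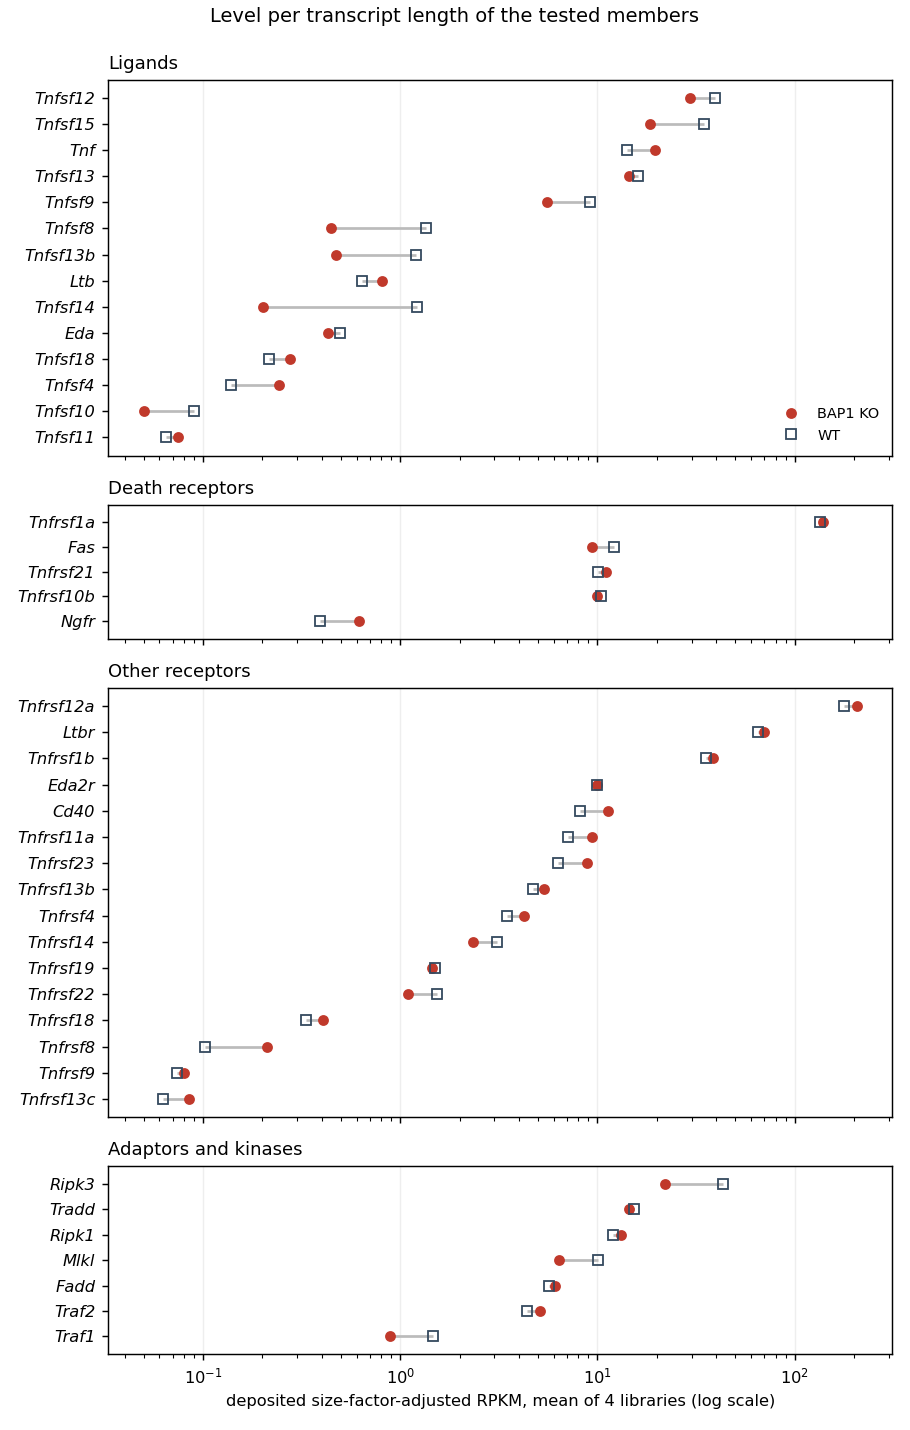
Authors' size-factor-adjusted RPKM of the tested members, mean of 4 BAP1 KO libraries (filled red circles) and 4 WT libraries (open squares), on a log scale by class. Tnfrsf12a and Tnfrsf1a are above 100 RPKM, while the ligands stay below 40 RPKM.

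Ligands were also set beside their receptors. Of 27 known ligand and receptor pairs, 18 had both genes tested and 10 had both called. In 6 of these 10 the ligand was lower and the receptor higher in BAP1 KO, in 2 both were lower, in 2 both were higher, and in none was the ligand higher and the receptor lower. The 6 are Tnfsf8 with Tnfrsf8, Tnfsf12 with Tnfrsf12a, Tnfsf13 and Tnfsf13b with Tnfrsf13b, Tnfsf10 with Tnfrsf23, and Tnfsf14 with Ltbr. Tnfsf14 and Tnfrsf14 fell together, as did Tnfsf10 and Tnfrsf22, and Tnf and Tnfrsf1b rose together, as did Tnfsf4 and Tnfrsf4. By class, 8 of the 10 called ligands were lower and 11 of the 14 called receptors higher. The pair counts therefore largely restate the class counts, and they were not tested against them. The limits given above apply here too. Tnfsf10 had few counts, Ltbr lost its call with some libraries left out, and Tnfsf12, Tnfsf13 and Tnfrsf23 share windows with other genes. Pairs share genes, so they are not independent, and whether the 2 ends of a pair differ was not tested apart from each gene's own change. Per length, Tnfsf15 averaged 26.4 RPKM over the 8 libraries and its receptor Tnfrsf25 0.0557 RPKM, and Tnfsf9 averaged 7.35 RPKM and its receptor Tnfrsf9 0.0766 RPKM. The reverse held for Tnfrsf11a and Cd40, at 8.23 and 9.72 RPKM, whose ligands Tnfsf11 and Cd40lg were at 0.0695 and 0.00639 RPKM.

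**Figure D4:**
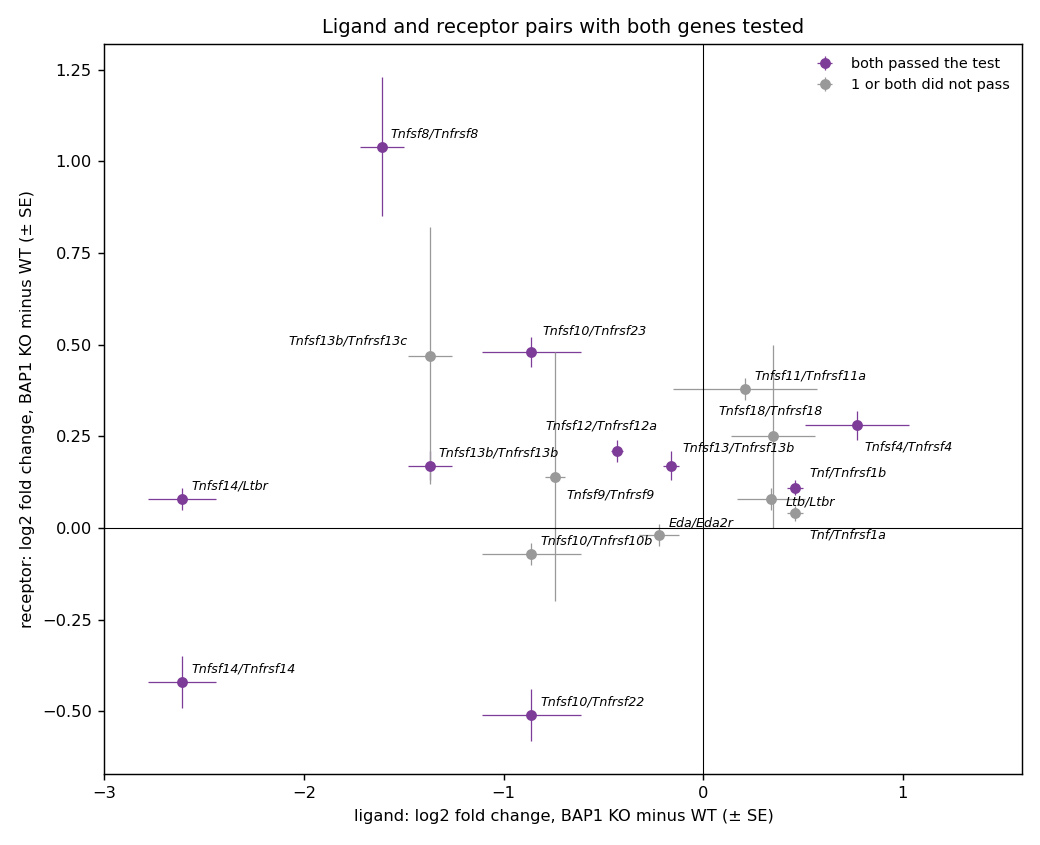
Log2 fold change (BAP1 KO minus WT, with standard errors) of the ligand on the horizontal axis and of its receptor on the vertical axis, for the 18 pairs with both genes tested; purple pairs had both genes called. The upper left holds 6 purple pairs and the lower right none, where most called ligands were lower and most called receptors higher by class.

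Of the 7 adaptors and kinases, Ripk3, Traf1 and Mlkl fell by more than 1.5-fold (42.9%, where 10.3% of all genes fell that far). Ripk3, the kinase that activates Mlkl, stood at 43.8, 44.7, 42.1 and 43.6 CPM in BAP1 KO, against 86.0, 84.2, 85.8 and 87.2 CPM in WT. The libraries of each genotype were within a few percent of each other and the genotypes far apart. The level was 50.7% of WT, with a log2 fold change of -0.98 ± 0.03 (adjusted p = 1.2e-23). Mlkl, which forms the membrane pore, had 15.7, 16.6, 16.4 and 16.0 CPM in BAP1 KO and 26.8, 25.5, 25.6 and 25.2 CPM in WT. It was lower in every BAP1 KO library, at 62.8% of WT (-0.67 ± 0.04, adjusted p = 8.9e-16). Zbp1, a nucleic acid sensor that can activate Ripk3 and is not among the 50, fell by 0.75 ± 0.05 (adjusted p = 1.1e-13). Ripk1, which acts upstream in the same route and also in survival signalling, rose by 0.11 ± 0.03 (adjusted p = 6e-04), and 7.87% of its 50-base windows occur in another gene.

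The adaptors changed by smaller amounts, apart from Traf1. Traf1, an NF-kB-induced partner of Traf2, stood at 2.38, 2.28, 1.98 and 2.26 CPM in BAP1 KO, against 3.36, 3.95, 4.10 and 3.37 CPM in WT. The groups did not overlap (-0.74 ± 0.09, adjusted p = 4.4e-08). Traf2, which links receptors to NF-kB and JNK, rose by 0.20 ± 0.04 (adjusted p = 3.7e-05). Tradd, the adaptor of Tnfrsf1a, had 21.4, 18.6, 19.4 and 21.1 CPM in BAP1 KO and 20.8, 21.4, 21.5 and 22.5 CPM in WT. Its ranges overlapped, and the call (-0.10 ± 0.04, adjusted p = 0.045) was lost in 7 of 16 alternatives, with adjusted p from 0.014 to 0.23. Fadd, the adaptor of Fas, was at 17.5 ± 0.82 CPM in BAP1 KO and 16.5 ± 0.26 CPM in WT (SD, n = 4 each; adjusted p = 0.090).

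A further 34 genes of the pathway (ubiquitin-editing enzymes, TRAFs, IKK subunits, caspase-8 and its inhibitor, other receptors) gave 12 higher, 9 lower and 13 that did not pass, 61.8% called, which is near the share over all genes. The largest change was in Tnfrsf11b, the soluble decoy osteoprotegerin that captures Tnfsf11. It stood at 25.7, 26.5, 25.7 and 25.4 CPM in BAP1 KO, against 97.1, 95.6, 93.0 and 92.4 CPM in WT. The BAP1 KO libraries were all far lower, and the log2 fold change was -1.87 ± 0.03 (adjusted p = 2.8e-30). Casp8, the caspase that death receptors activate, fell by 0.18 ± 0.03. Rises were led by Adam17, the protease that sheds Tnf (0.28 ± 0.02), the NF-kB regulator Traf3 (0.33 ± 0.03), its relative Traf4 (0.40 ± 0.04), and Spata2 (0.39 ± 0.04), which brings the deubiquitinase Cyld to the Tnfrsf1a complex. Exons of Adam17 and Spata2 overlap those of a gene on the opposite strand.

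By position, 13 pairs of family genes lie within 200 kb of each other with no other family gene between them. Both genes were called in 5 pairs, in the same direction in 4 and in opposite directions in 1. The 4 are Tnfsf13 with Tnfsf12, Tnfsf15 with Tnfsf8, Tnfrsf1b with Tnfrsf8, and Tnfrsf26 with Tnfrsf22, and the opposite pair is Tnfrsf22 with Tnfrsf23. Tnfsf12 and Tnfsf13 share the read-through transcript, and Tnfrsf22 and Tnfrsf23 share part of their 50-base windows. Tnfrsf22 stands in more than 1 pair. Among all genes tested 61.1% were called, a share of single genes that is not like a share of pairs with both called. Pairs with Lta, Cd70 or Cd27 hold a gene that was not tested. Neighbouring pairs over all genes were not counted, so whether the directions go with position was not tested.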

How the data were processed

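RNA was measured in 8 libraries of mouse mesothelial cells, 4 BAP1 KO and 4 WT, grouped by the genotype in the labels and numbered 1 to 4 within it in order of deposit, as names only. Per the labels' protocols, 0.5 ug of column-purified, DNase-treated RNA entered a TruSeq RNA v2 library, which does not mark the strand, and reads were single-end of 50 bases. The protocol states fewer reads than were counted: the deposited counts sum to 67069401 to 84861343 per library, and the sources used here give no reason. Per the submitters' processing notes, GSNAP and GRCm38 were used, while the version, annotation and counting options are not stated there. Per the file headers, the deposited counts tally unique reads for each Entrez gene, and the deposited RPKM include a size factor. Symbols came from RefSeq on GRCm38.p6 for 31049 of 36528 identifiers, and overlaps from GENCODE vM21.

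The test was the quasi-likelihood F test of edgeR 4.0.16 under R 4.3.3, with TMM scaling, robust moderation and filterByExpr (about 0.133 CPM in 4 libraries), with Benjamini-Hochberg adjustment over all 16929 genes tested. Fold changes are BAP1 KO minus WT on the log2 scale, the standard error is the fold change over the square root of F, and CPM use TMM-adjusted totals. RPKM were used only to set genes beside each other. The scripts were checked on simulated counts with 200 genes changed, far fewer than were called here. The check required only that most changed genes be recovered, so it does not cover data in which most genes move. Alternatives were RLE, upper quartile or no factors, no filter, a filter of CPM above 1 in 4 libraries, DESeq2 1.42.0, limma-voom (limma 3.58.1), no robust moderation, and each library left out. Squared differences between libraries of a genotype were 2.38 to 5.34 times counting noise (median over genes with at least 200 counts in every library). The common coefficient of variation between libraries in the edgeR fit was 0.029. Each library was counted as 1 replicate, but these values do not show whether the libraries are separate biological replicates. Nothing in the labels says that libraries came from separate animals or cultures, so p-values reflect only how these libraries vary, possibly for technical reasons. Members, lists and motifs were chosen with earlier results of these data known. Members were given by library if they passed the test at 1.5-fold or more with a mean of 1 CPM in a genotype, or were among the 2 highest per length of their class, or were Tnf, Fas, Tnfsf10 or Tnfrsf10b. Of the other 34 pathway genes, up to 4 in each direction with the smallest adjusted p are named by that rule. 1 T cell marker, Trbc2, had no identifier in the files' table of symbols and was not analysed here.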

Additional observations from a re-analysis of the deposited data

Results flagged for a closer look

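In 3 of 86 groups of 4 libraries, 1 library stood apart from the other 3 by Dixon's criterion, which chance meets in about 1 group in 20. WT replicate 4 had 0.0779 CPM of Tnfsf11, where the other WT libraries had 0.163 to 0.179 CPM. WT replicate 2 had 0.294 CPM of Tnfsf18, where the other WT libraries had 0.503 to 0.510 CPM. WT replicate 3 had 32.5 CPM of Tnfrsf10b, where the other WT libraries had 33.9 to 34.0 CPM, and without it the difference of Tnfrsf10b passed (log2 fold change -0.08, edgeR adjusted p = 0.036).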

How the results depend on the processing

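Over 16 alternatives, 635 of 663 values of the 42 tested members kept their direction and their side of the threshold. Of the 30 members called, 27 kept the call in each alternative in which they were tested, and the exceptions were Tnfsf4, Ltbr and Tradd. A call was gained in at least 1 alternative by Ltb, Eda, Tnfrsf1a, Tnfrsf10b and Fadd. The count of ligands higher was 1 with the filter of CPM above 1 in 4 libraries, which leaves Tnfsf4 out of the test, and 1 to 3 with single libraries left out. The count of death receptors lower was 2 with upper quartile factors, 2 with library totals alone and 2 with the filter of CPM above 1, and 1 to 2 with single libraries left out, the added gene being Tnfrsf10b, and the cause was not tested. Members not called changed sign in 4 values: Tnfrsf9 without WT replicate 2 (-0.04, over a range to 0.40 with other libraries left out), Tnfrsf19 without WT replicate 1 (0.01, range from -0.10) and Eda2r without BAP1 KO replicate 1 (0.00) or WT replicate 1 (0.01, range from -0.05). The count of members higher ran from 13 to 17 and of members lower from 14 to 17. No paired analysis was possible because the labels give no replicate numbers: those used here (1 to 4 in each genotype) were assigned in order of deposit, only name a library and pair none. Members with few counts, such as Tnfsf10 and Tnfsf11, are limited by depth.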
